A study of Mus musculus with 32 samples.

Results

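The genes that write, maintain and oxidise DNA methylation were followed through a single-cell study of induced pluripotency in the mouse: Dnmt1, Uhrf1, Dnmt3a, Dnmt3b, Dnmt3l, Tet1, Tet2 and Tet3, 8 of the 24421 genes in each table. They were taken by name, and all 8 were present in all 32 libraries. Counts are unique molecular identifiers (UMIs), summed over the cells of a library. Levels are given as CPM, UMIs relative to the size of the library, scaled with edgeR's TMM factors unless stated. A group is a pair of libraries, replicates A and B. Mouse embryonic fibroblasts (MEF) were profiled before reprogramming, and embryonic stem cells of the V6.5 line (ESC) were profiled in serum medium and after 2 days with A2S.

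The letters of a medium name its small molecules. A is ascorbic acid at 50 ug/mL, 2 is the 2i pair of CHIR-99021, an inhibitor of GSK3, and PD-0325901, an inhibitor of MEK, added 12 hours after the others, and S is the DOT1L inhibitor SGC0946 at 5 uM. Fibroblasts were reprogrammed with all of these (A2S, days 2, 4 and 6), with a pair of components left in (A2, S2 and AS, days 4 and 6) or with none (FBS, days 3, 6, 9 and 12). All media were the same serum and leukaemia inhibitory factor medium for embryonic stem cells, and the reprogramming cultures lay on irradiated feeder fibroblasts with doxycycline at 2 ug/mL. The factors that doxycycline induces, the strain of the fibroblasts and the number of cell lines or embryos behind a group were not stated in the labels. The labels do not say that the libraries of a group came from separate cultures, so the p-values measure only the spread between these libraries.

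Of 8334 barcodes, 684 were on the submitters' list of irradiated feeder cells and were left out, and 7650 were kept. Listed barcodes made up 0% to 35.8% of a library, the highest shares being those of FBS day 3 (35.8% and 26.9%) and A2S day 2 (27.2% and 22.8%). A library held 138 to 431 kept cells and 1727490 to 8848775 UMIs, and 34 barcodes occurred in more than 1 library. The labelled cell types carried their markers: 10 fibroblast markers summed to 12319 and 11375 CPM in MEF and to 22.6 and 18.7 CPM in ESC, and 12 embryonic stem cell markers to 5593 and 5533 CPM in ESC and to 122 and 106 CPM in MEF, where 6 of the 12, among them Pou5f1 and Zfp42, were at 0.

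DNA methylation is placed on cytosines of unmethylated CpG sites by the de novo enzymes DNMT3A and DNMT3B, helped in mouse germ cells and embryonic stem cells by DNMT3L, which has no catalytic activity of its own. After replication it is copied to the new strand by DNMT1, which UHRF1 brings to hemimethylated sites. TET1, TET2 and TET3 oxidise the methyl group in a reaction that needs iron and 2-oxoglutarate and that ascorbic acid is known to stimulate, and mouse embryonic stem cells grown in 2i are known for low DNA methylation.

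Promoter sequence was compared because Dnmt1 and Uhrf1 moved together over the 16 groups (r = 0.90 between group means of log2(CPM + 1), a description over groups that share libraries and scaling), as did Dnmt3b and Tet1 (r = 0.96). RefSeq's table of promoter windows on GRCm38.p6, 250 bases before to 50 after a start, matched 8 of the 8 genes with 15 windows. The letters TTTCCCGC, TTTCGCGC, TTTGCCGC and TTTGGCGC, forms of the site of the E2F factors that switch on S phase genes, were searched on both strands. They were found in 2 of the 15 windows, a start of Dnmt1 and a start of Uhrf1, against 744 of all 32851 windows (2.26%), and those windows were picked among several starts of each gene after the search. The Dnmt1 sites lie on the minus strand at chr9:20952825-20952852, 219 bases before the start, and chr9:20952574-20952600, 33 bases after it. Both overlap annotated exons and untranslated regions of Dnmt1. The Uhrf1 stretch is chr17:56304063-56304312, plus strand, inside the annotated gene and directly before the start, with its site 185 bases before the start. The Dnmt3b stretch, chr2:153649199-153649448, plus strand, ends at that gene's start, overlaps only its antisense transcript Dnmt3bos and held none of the letters. Capitals mark the letters searched.

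Dnmt1 site before the start: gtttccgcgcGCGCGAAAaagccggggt
Dnmt1 site after the start: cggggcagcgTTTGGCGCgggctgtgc
Uhrf1: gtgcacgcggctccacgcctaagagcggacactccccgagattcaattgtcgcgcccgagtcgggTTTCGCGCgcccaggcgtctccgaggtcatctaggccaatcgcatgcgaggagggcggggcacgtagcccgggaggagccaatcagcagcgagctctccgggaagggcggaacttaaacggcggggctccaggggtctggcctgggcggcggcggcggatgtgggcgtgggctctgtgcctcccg
Dnmt3b: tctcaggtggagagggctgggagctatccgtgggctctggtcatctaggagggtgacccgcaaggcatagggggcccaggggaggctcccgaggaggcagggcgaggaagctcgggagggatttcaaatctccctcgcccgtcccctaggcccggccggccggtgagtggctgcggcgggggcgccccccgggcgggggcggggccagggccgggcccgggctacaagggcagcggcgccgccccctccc

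These windows of Dnmt1, Uhrf1 and Dnmt3b held 33, 33 and 30 CpG sites in 300 bases, where the median of all windows was 7. The Dnmt1 and Uhrf1 windows had been picked for letters that contain CG, and the other windows held 2 and 12 for Dnmt1 and 12 for Uhrf1. The 3 windows of Dnmt3l held 6, 4 and 3. The matches describe these letters only. In GENCODE's annotation of the mouse genome, Dnmt1 spans chr9:20907209-20959888, Uhrf1 chr17:56303321-56323486, Dnmt3a chr12:3806007-3914443, Dnmt3b chr2:153649450-153687730, Dnmt3l chr10:78041947-78063622, Tet1 chr10:62804570-62908996, Tet2 chr3:133463679-133545139 and Tet3 chr6:83362373-83459084. Whether reads were counted by strand is not given in the sources used here, so reads of Dnmt3b and Dnmt3bos cannot be told apart, nor can those of Dnmt3l and the overlapping, antisense Aire.

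In embryonic stem cells all but 1 of the 8 genes stood above fibroblasts. Differences were tested with edgeR's quasi-likelihood test on one fit of all 32 libraries, with Benjamini-Hochberg adjustment over the 13229 genes tested and a call at an adjusted p under 0.05. In ESC against MEF, 7 members were higher and 1 lower, in a comparison that called 71.8% of all genes tested. Dnmt3b read 665 and 646 CPM in ESC and 3.32 and 2.59 in MEF, a log2 fold change of 7.79 ± 0.24 (SE; 222-fold, adjusted p = 7.9e-23). Dnmt3l, the inactive partner, gave 505 and 639 UMIs in ESC and 3 and 9 in MEF (log2 7.94 ± 0.30, adjusted p = 9.17e-18). Tet1, the oxidase known from embryonic stem cells, stood at 352 and 355 CPM against 3.32 and 1.81 (log2 7.13 ± 0.25, adjusted p = 1.29e-21). These 3 genes were near the bottom of their range in fibroblasts.

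The other members differed less between the cell types. Dnmt3a read 156 and 154 CPM in ESC against 26.4 and 20.9 in MEF (6.59-fold, adjusted p = 4.12e-17), and Tet2 50.6 and 42.9 against 4.81 and 4.28 (10.2-fold, adjusted p = 1.33e-14). The maintenance pair was present in both: Uhrf1 was 4.28-fold higher in ESC (289 and 271 against 71.4 and 59.9 CPM, adjusted p = 5.38e-16) and Dnmt1 1.89-fold (225 and 235 against 118 and 124 CPM, adjusted p = 2.59e-08). Tet3, known as the oxidase of the oocyte and of differentiated tissues, went the other way: 12.6 and 8.81 CPM in ESC against 31.9 and 29.7 in MEF, log2 -1.53 ± 0.23 (adjusted p = 8.27e-07).

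**Figure D1:**
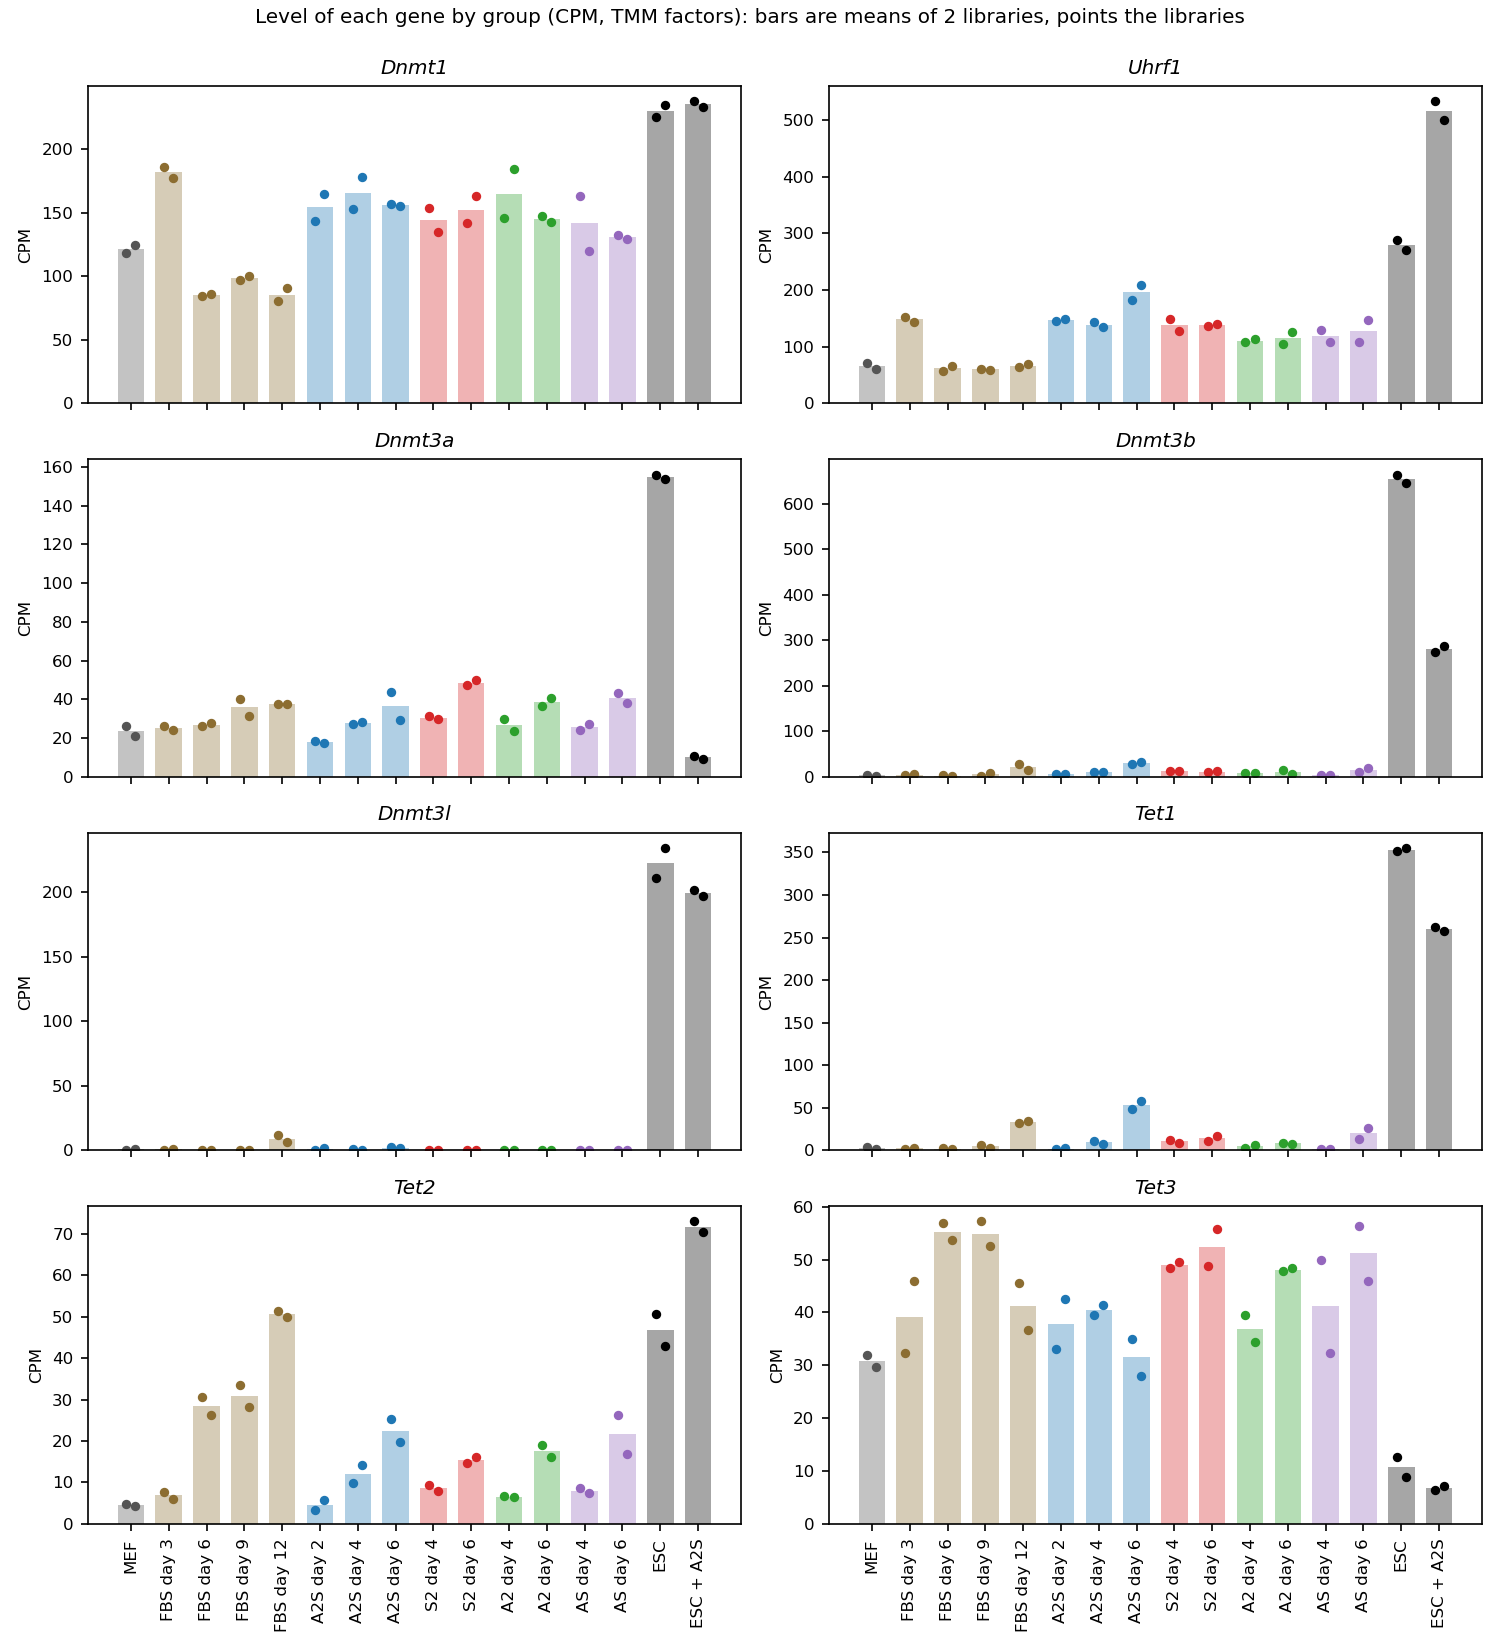
Level of each gene (CPM with TMM factors, linear axis from 0) in the 16 groups; bars are means of 2 libraries and points are the libraries. Dnmt3b, Dnmt3l and Tet1 stand high in both stem cell groups and low in the others, Dnmt3a is high in ESC (156 and 154 CPM) and at 10.9 and 9.39 CPM in ESC with A2S, and Tet3 is lowest in the stem cells.

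A2S for 2 days changed 5 of the 8 genes in embryonic stem cells, 2 upward and 3 downward, where 46.7% of all genes were called. The de novo enzymes fell. Dnmt3a read 156 and 154 CPM in serum ESC and 10.9 and 9.39 CPM with A2S, a fall of 15.2-fold (log2 -3.92 ± 0.17, adjusted p = 9.14e-18), to below the 26.4 and 20.9 CPM of fibroblasts. Dnmt3b fell 2.33-fold, from 665 and 646 to 274 and 288 CPM (log2 -1.22 ± 0.15, adjusted p = 9.42e-08). Their partner Dnmt3l read 211 and 235 CPM without and 202 and 198 CPM with A2S, with no overlap, and did not pass (log2 -0.16 ± 0.17, adjusted p = 0.472). With the compared groups alone it was called lower (log2 -0.20, adjusted p = 0.0322). Whether its difference is unlike that of the catalytic genes was not tested.

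Uhrf1 rose 1.85-fold, from 289 and 271 to 534 and 499 CPM (log2 0.88 ± 0.11, adjusted p = 1.35e-07), its highest level in the study. Dnmt1, which UHRF1 recruits, read 225 and 235 CPM without and 238 and 233 CPM with A2S (log2 0.03 ± 0.12, adjusted p = 0.849). Among the oxidases Tet2 rose 1.54-fold, from 50.6 and 42.9 to 73.1 and 70.4 CPM (adjusted p = 0.00406). That call was lost without ESC replicate B (adjusted p = 0.0773), the only left-out library of the 4 that ended it. Tet1 read 352 and 355 against 262 and 258 CPM (log2 -0.44 ± 0.16, adjusted p = 0.0206), but its call was lost with DESeq2 (adjusted p = 0.0752) and without any 1 of the 4 libraries (0.0801 to 0.109). Tet3 was at 12.6 and 8.81 against 6.29 and 7.18 CPM (adjusted p = 0.0964). Cells with a Nanog UMI made up 82.6% and 88.4% of ESC and 95.5% and 97.6% of ESC with A2S. The fibroblast markers summed to 93.6 and 73.8 CPM with A2S against 22.6 and 18.7 without, and the part of either in these differences was not tested.

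The share of cells with a UMI of a gene was also read, after each cell was thinned to 1000 UMIs. A UMI of Dnmt3b was found in 35.5% and 43.9% of ESC and in 20.3% and 23.4% of ESC with A2S (exact 95% intervals 27.6% to 44.1%, 36.2% to 51.9%, 16.4% to 24.8% and 18.7% to 28.6%, for counting error only). In thinned MEF it was found in 0 of 298 cells, where a floor of 3 counts allows a share of up to 1.01%, and in 0.232% of 431 cells. Background RNA in the droplets was not measured. A UMI of Dnmt3a was found in 17.4% and 17.1% of ESC and in 2 of 374 and 2 of 295 cells with A2S. Without thinning the shares for Dnmt3b were 85.5% and 90.2% in ESC, 78.9% and 82.7% with A2S, and 6.04% and 4.18% in MEF, at median depths of 16461.5 and 14853, 10112 and 12251, and 22796 and 19102 UMIs per cell.

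Ascorbic acid was tested during reprogramming by setting A2S beside S2, which lacks it. At day 4 edgeR called 0 of the 8 genes, where 6.55% of all genes were called. The adjusted p of the members ran from 0.345 to 1, DESeq2 also called 0, and 0 were at an unadjusted p under 0.05. Tet1, for example, stood at 10.6 and 7.86 CPM in A2S and at 12.5 and 9.08 in S2 (log2 -0.18 ± 0.37), and Tet2 at 9.81 and 14.1 against 9.39 and 7.84 (log2 0.40 ± 0.29).

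By day 6, 4 of the 8 were higher and 1 lower with ascorbic acid, where 16.1% of all genes were called. Tet1 read 48 and 57.6 CPM in A2S and 11.2 and 16.9 CPM in S2, a 3.82-fold rise (log2 1.93 ± 0.25, adjusted p = 2.07e-06). Dnmt3b stood at 27.4 and 32.8 against 10.8 and 12.6 CPM, 2.58-fold higher (log2 1.37 ± 0.29, adjusted p = 0.0011). Both genes were higher in each A2S library than in each S2 library, and both kept their call under all 11 alternatives run. Dnmt3l gave 13 UMIs over both A2S libraries (8 and 5) and 0 over both S2 libraries, at least 3.87-fold higher against a floor of 3 UMIs over the group (adjusted p = 0.0139). This call rested on few molecules and was lost without A2S replicate A (adjusted p = 0.0742), S2 replicate A (0.11) or S2 replicate B (0.0676).

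Uhrf1 read 182 and 209 CPM in A2S and 137 and 140 in S2 (1.42-fold higher, adjusted p = 0.00429; 0.073 without A2S replicate B). Tet3 was the gene that fell, from 48.8 and 55.8 CPM in S2 to 35 and 28 CPM in A2S (log2 -0.72 ± 0.19, adjusted p = 0.00707). Its adjusted p was 0.126 without A2S replicate B and 0.085 without S2 replicate B. Dnmt1 (156 and 155 against 142 and 163 CPM, log2 0.04 ± 0.12) and Tet2 (25.2 and 19.6 against 14.7 and 16.1 CPM, adjusted p = 0.0988) did not pass. Nor did Dnmt3a (43.7 and 29.6 against 47.2 and 49.9 CPM, log2 -0.40 ± 0.16, adjusted p = 0.0874), whose A2S libraries lay apart. Without A2S replicate A the Dnmt3a difference was -0.69 on the log2 scale. The ascorbic acid difference was larger at day 6 than at day 4 for Tet1, by 2.11 ± 0.45 on the log2 scale (adjusted p = 0.00769), the only member called in a test of that interaction, which called 3.39% of all genes. The call was lost without S2 day 4 replicate A (adjusted p = 0.104) or S2 day 6 replicate A (0.0569). For Dnmt3b the interaction was 1.51 ± 0.46 (adjusted p = 0.0616), and it was called with the compared groups alone (0.0163) and with no filter (0.0144).

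**Figure D2:**
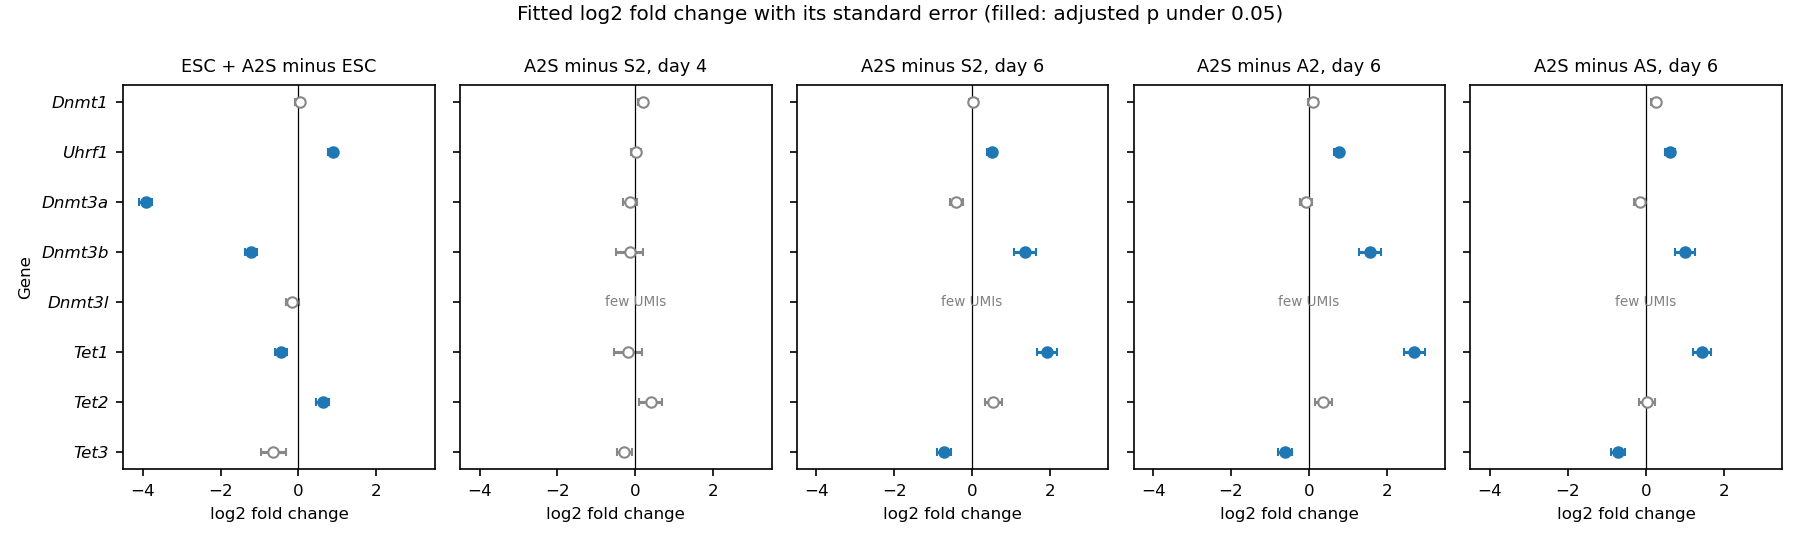
Fitted log2 fold change of each gene (horizontal axis; bars are standard errors, filled points have an adjusted p under 0.05) in 5 comparisons; Dnmt3l is not drawn where a group held few UMIs. Dnmt3a and Dnmt3b lie to the left for ESC with A2S (-3.92 and -1.22), no point is filled for A2S minus S2 at day 4, and Tet1 lies farthest right in the 3 comparisons at day 6.

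The markers of cell state moved with these differences. In A2S at day 6, 12 embryonic stem cell markers summed to 1143 and 1275 CPM and cells with a Nanog UMI made up 48.7% and 48.8%. In S2 the sums were 250 and 247 CPM and the shares 25.7% and 21.6%. In summed libraries, fewer cells of a type and less RNA per cell cannot be told apart, so the libraries were split into cells with and without a UMI of Nanog, a transcription factor of pluripotent cells. Median UMIs per cell of A2S were 12369 and 12478.5 in Nanog-positive and 12909.5 and 9793 in Nanog-zero cells. In S2 they were 14019 and 10945 against 12225 and 11457. Levels within a class are CPM of the summed UMIs of that class in a library, without TMM factors. They are therefore not on the scale of the whole-library levels, while the tests used TMM factors.

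Within A2S at day 6, with the library as a block, 5 of the 7 members tested were higher and 1 lower in the Nanog-positive cells (112 and 126 cells) than in the Nanog-zero cells (118 and 132), where 36.4% of 10729 genes were called. Tet1 read 86.6 and 99.4 CPM in the first and 19.8 and 18.7 in the second (log2 2.25 ± 0.22, adjusted p = 5.55e-07), Dnmt3b 47.1 and 53.3 against 13.4 and 14.4 (log2 1.83 ± 0.26, adjusted p = 3.25e-05). Uhrf1 (log2 1.30 ± 0.12, adjusted p = 1.88e-07), Dnmt1 (0.71 ± 0.12, adjusted p = 0.000166) and Tet2 (1.06 ± 0.28, adjusted p = 0.00745, but 0.326 without A2S replicate A) were higher too. Tet3 was lower, at 20.8 and 15.6 against 53.5 and 45.4 CPM (log2 -1.45 ± 0.24, adjusted p = 0.000145), though not with Epcam, an epithelial surface gene, in place of Nanog (adjusted p = 0.128), where Tet2 was not called either (0.111). All 13 UMIs of Dnmt3l, in 4 and 3 cells, lay in Nanog-positive cells, which held 47.9% and 52.6% of all UMIs.

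The same split of S2 at day 6 (61 and 45 Nanog-positive cells, 176 and 163 Nanog-zero) gave 3 members higher and 1 lower of 7, where 16.1% of genes were called. Dnmt3b was higher in the Nanog-positive cells, at 25.7 and 42 against 5.4 and 5.68 CPM (log2 2.50 ± 0.36, adjusted p = 0.00011), as was Uhrf1 (1.03 ± 0.13, adjusted p = 2.62e-05). Tet1 (1.41 ± 0.34, adjusted p = 0.00871) and Tet3 (-0.75 ± 0.24, adjusted p = 0.0397) were called, but without S2 replicate B their adjusted p was 0.301 and 0.391, and for Tet3 it was 0.0588 without replicate A. With Epcam as the class neither was called (Tet1 log2 0.61, adjusted p = 0.347, and Tet3 log2 -0.31, adjusted p = 0.442).

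**Figure D3:**
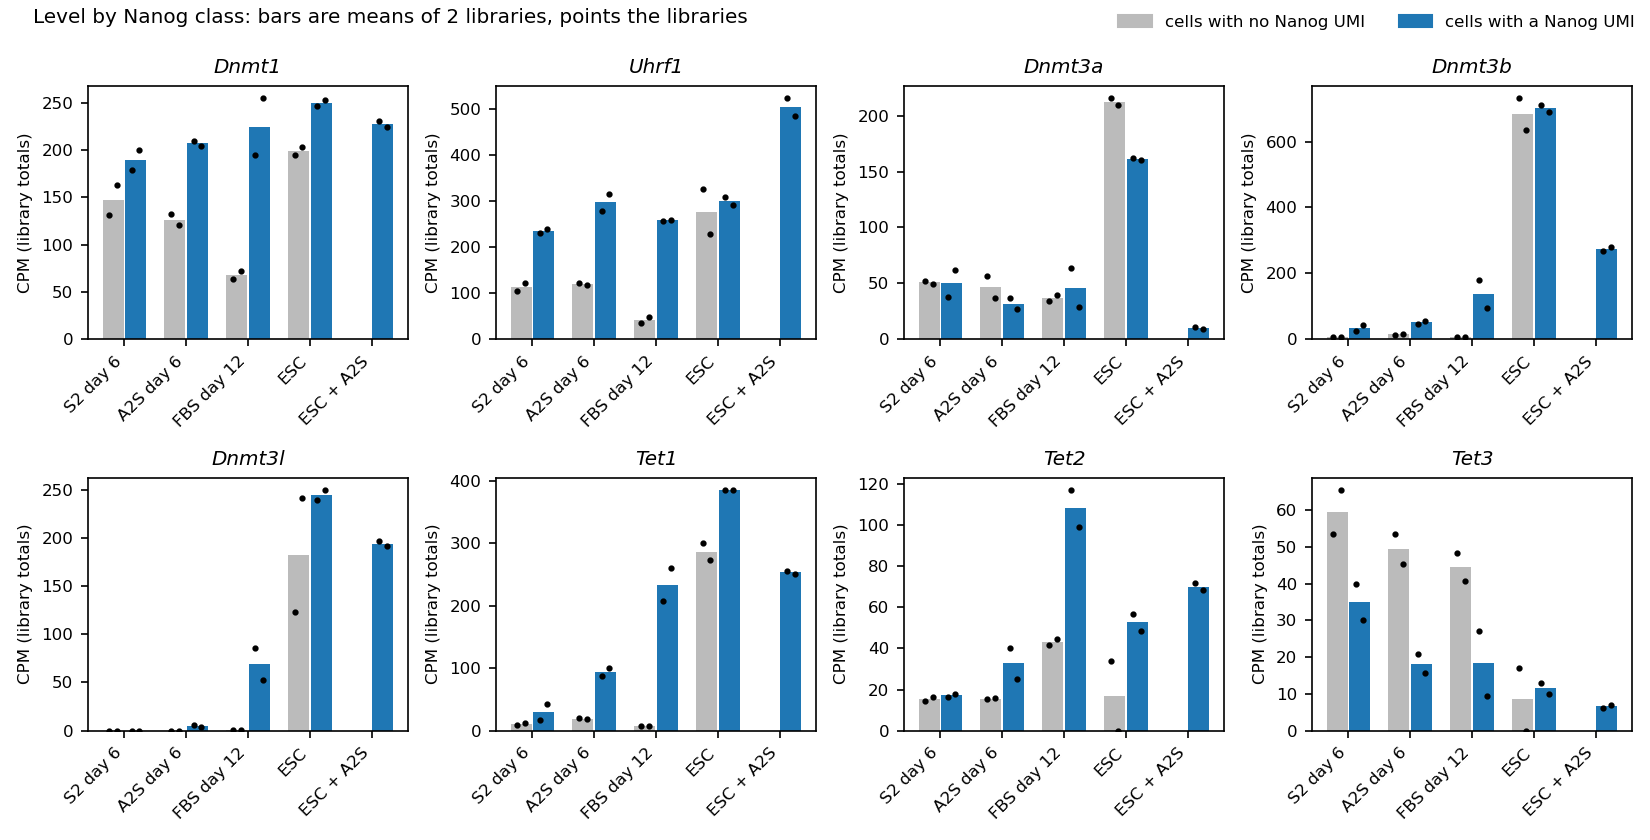
Level of each gene (CPM of library totals, linear axis from 0) in cells without (grey) and with (blue) a Nanog UMI; bars are means of 2 libraries and points are the libraries, and the 17 and 7 Nanog-zero cells of ESC with A2S are not drawn. In Nanog-positive cells Tet1 is at 86.6 and 99.4 CPM in A2S day 6 and at 17.6 and 42 CPM in S2 day 6, and Tet3 is lower in Nanog-positive than in Nanog-zero cells in S2 day 6, A2S day 6 and FBS day 12.

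The ascorbic acid difference was then taken within each class. In Nanog-positive cells alone, A2S against S2 called 3 members higher and 1 lower, where 12.3% of 11233 genes were called. Tet1 was higher by 1.82 ± 0.24 on the log2 scale (86.6 and 99.4 against 17.6 and 42 CPM, adjusted p = 1.02e-06), close to the 1.93 of the whole libraries. The class was not alike in the 2 media. Cells with 2 or more Nanog UMIs were 87 of 112 and 105 of 126 positive cells in A2S. In S2 they were 42 of 61 and 29 of 45, and the part of this was not tested. Dnmt3b, at 47.1 and 53.3 against 25.7 and 42 CPM, differed by 0.68 ± 0.24 and did not pass (adjusted p = 0.0606), but it was called with Epcam as the class (log2 1.12, adjusted p = 0.0019) and without S2 replicate B (0.0267). Uhrf1 (0.36 ± 0.11, adjusted p = 0.0288), Dnmt3l (13 against 0 UMIs, adjusted p = 0.0259) and Tet3 (-0.97 ± 0.32, adjusted p = 0.0432) passed. With 2 Nanog UMIs as the class none of them did (adjusted p = 0.108, 0.0562 and 0.194), and with Epcam Tet3 did not (0.0514). Single libraries left out also ended these calls. Uhrf1 lost its call without A2S replicate B, S2 replicate A or S2 replicate B (log2 0.27, 0.37 and 0.37). Dnmt3l lost its call without A2S replicate A, S2 replicate A or S2 replicate B. Tet3 lost its call without A2S replicate A, A2S replicate B or S2 replicate A (log2 -1.17, -0.77 and -0.67). Without S2 replicate A Tet1 was the only member called. Tet2, at 0.96 ± 0.33, had an adjusted p of 0.0515, and 0.0146 without A2S replicate B.

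In Nanog-zero cells edgeR called 0 of the 7 members tested, where 9.41% of 10895 genes were called, and 2 (Dnmt3b and Tet1) were at an unadjusted p under 0.05. Tet1 differed there by 0.89 ± 0.34 (19.8 and 18.7 against 9.01 and 11.4 CPM, adjusted p = 0.11) and Dnmt3b by 1.29 ± 0.42 (13.4 and 14.4 against 5.4 and 5.68 CPM, adjusted p = 0.0623). Nanog-zero cells include cells with an Epcam UMI. Cells with an Epcam UMI numbered 180 and 179 in A2S, where 112 and 126 had a Nanog UMI. In S2 they numbered 129 and 102, where 61 and 45 had a Nanog UMI. The part of such cells in these values was not tested. Whether the difference of a gene was unequal between the Nanog classes was not tested either.

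At day 6, A2S was also set beside the media that lack another of its components. These comparisons share the A2S libraries and are not independent. Against A2, which lacks the DOT1L inhibitor, 4 members were higher and 1 lower (30.8% of all genes called), and against AS, which lacks 2i, 4 were higher and 1 lower (38.6%). Tet1 stood at 48 and 57.6 CPM in A2S, at 8.18 and 7.88 in A2 (6.55-fold higher in A2S, adjusted p = 2.55e-09) and at 13.3 and 26.4 in AS (2.74-fold, adjusted p = 6.91e-06). The Tet1 libraries of A2S lay above all those of the other media. Dnmt3b at 27.4 and 32.8 CPM was 2.95-fold above A2 (15.4 and 5.71 CPM, adjusted p = 7.88e-05) and 2.02-fold above AS (10.7 and 20 CPM, adjusted p = 0.00278, but 0.127 without AS replicate A). Uhrf1 was 1.7-fold above A2 and 1.54-fold above AS (adjusted p = 1.21e-05 and 0.00013).

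Tet3 was lower in A2S than in A2 (47.8 and 48.4 CPM, log2 -0.61 ± 0.19, adjusted p = 0.0122) and in AS (56.3 and 46 CPM, log2 -0.70 ± 0.18, adjusted p = 0.00278). Both calls were lost without A2S replicate B (adjusted p = 0.177 and 0.0768), and also without A2 replicate B (0.0747) and AS replicate A (0.0886). Dnmt3l had 0 UMIs in A2, so that A2S was at least 4.59-fold higher, and 1 UMI in AS, a ratio of 13.9 (exact interval 2.08 to 590). The call against AS was lost without A2S replicate A (adjusted p = 0.0818) or AS replicate A (0.138). At day 4 Tet1 was the only member called against A2 (14.4% of genes called; 10.6 and 7.86 against 2.53 and 6.43 CPM, adjusted p = 0.0442), and its call was lost without A2S replicate A (0.406), A2S replicate B (0.061) or A2 replicate A (0.624). The AS day 4 libraries differed most of all pairs (chi-square of their counts per degree of freedom 8.1, next FBS day 3 at 3.47). The fit takes its spread from all groups. Against AS at day 4 Tet1 (2.04 and 2.01 CPM in AS, 4.7-fold higher in A2S, adjusted p = 0.00102) and Dnmt3b (11.7 and 11 against 5.09 and 3.35 CPM, 2.92-fold, adjusted p = 0.00704) were called, where 30% of genes were. Without A2S replicate A neither was (0.0533 and 0.0819), and Dnmt3b was not without AS replicate B (0.175).

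Along the A2S time course each interval was tested on its own, and the intervals were not tested against each other. By day 2 Uhrf1 had risen 2.26-fold over MEF (146 and 150 against 71.4 and 59.9 CPM, adjusted p = 1.34e-09), and 3 members in all were called higher, where 49.8% of genes were. The other calls were small and unstable: Dnmt1 (144 and 165 against 118 and 124 CPM, adjusted p = 0.013) and Dnmt3b (6.74 and 5.51 against 3.32 and 2.59 CPM, adjusted p = 0.0344) were lost with RLE factors (0.0684 and 0.0538), with DESeq2 (0.116 and 0.0729), with the listed feeder cells kept (0.498 and 0.118) and without MEF replicate A (0.199 and 0.0659) or A2S replicate B (0.356 and 0.0811). From day 2 to day 4, 3 members rose (29.5% of genes called). Tet1 went from 1.08 and 2.07 to 10.6 and 7.86 CPM (5.86-fold, adjusted p = 0.000181) and Tet2 from 3.23 and 5.74 to 9.81 and 14.1 CPM (2.5-fold, adjusted p = 0.00118). Dnmt3b, from 6.74 and 5.51 to 11.7 and 11 CPM, did not pass (1.88-fold, adjusted p = 0.0669), but was called with the compared groups alone (0.0232), with the listed feeder cells kept (0.0168) and with no filter (0.0323). Dnmt3a went from 18.3 and 17.7 to 27.5 and 28.3 CPM (adjusted p = 0.0106), a call that was lost without day 2 replicate B (0.0612) or day 4 replicate A (0.0624).

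From day 4 to day 6, 4 members rose (24.6% of genes called). Tet1 rose again, 5.46-fold (adjusted p = 6.81e-08), and Dnmt3b rose 2.62-fold from 11.7 and 11 to 27.4 and 32.8 CPM (adjusted p = 0.000659). Uhrf1 rose 1.4-fold (143 and 135 to 182 and 209 CPM, adjusted p = 0.00385, but 0.061 without day 6 replicate B). Tet2 rose 1.96-fold (adjusted p = 0.00365), a call lost without day 4 replicate A (0.161) or day 6 replicate A (0.0579). The intervals share the day 4 libraries.

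Reprogramming without small molecules took another course. By day 3 the maintenance pair had risen over MEF, Dnmt1 to 186 and 177 CPM (1.5-fold, adjusted p = 0.000137, but 0.0512 with the listed feeder cells kept) and Uhrf1 to 152 and 144 CPM (2.27-fold, adjusted p = 3.19e-09), the 2 members called where 40.8% of genes were. At day 6 Dnmt1 read 84.6 and 85.7 CPM and Uhrf1 56.9 and 66.4. From day 3 to day 12, 5 members rose and 2 fell (45.7% of genes called). Dnmt1 fell by 1.09 and Uhrf1 by 1.15 on the log2 scale, to 80.2 and 90.6 and to 64.1 and 69.8 CPM (adjusted p = 8.32e-08 and 9.02e-08). Dnmt1 then lay below both libraries of MEF, and Uhrf1 overlapped them.

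Over the same days Tet2 rose 7.33-fold, from 7.74 and 5.95 to 51.4 and 49.9 CPM (adjusted p = 4.34e-11), after 30.7 and 26.4 CPM at day 6 and 33.5 and 28.2 at day 9. Tet1 rose 15.6-fold, from 1.15 and 3.13 to 32.3 and 34.1 CPM (adjusted p = 2.23e-09), with 6.3 and 2.56 CPM at day 9. Dnmt3b (4.3 and 5.32 to 27.7 and 14.8 CPM, adjusted p = 4.68e-05) and Dnmt3l (1 and 3 UMIs to 20 and 12 UMIs, adjusted p = 4.29e-05) rose as well. Tet2 was thus well above MEF by day 6, while Tet1 was at 2.79 and 1.32 CPM. Dnmt3a rose 1.49-fold (26.4 and 24.1 to 37.5 and 37.7 CPM, adjusted p = 0.0125), a call lost without FBS day 12 replicate A (0.0613) or B (0.0768) or day 3 replicate B (0.0895). Tet3 read 32.4 and 46 CPM at day 3 and 45.6 and 36.7 at day 12 (log2 0.07 ± 0.20).

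In A2S at day 6 against FBS at day 6, 6 members were higher and 1 lower (52.7% of genes called). Tet1 was 23.4-fold higher (48 and 57.6 against 2.79 and 1.32 CPM, adjusted p = 4.54e-12), Dnmt3b 10.3-fold (27.4 and 32.8 against 3.35 and 2.2 CPM, adjusted p = 1.09e-08), Uhrf1 3.2-fold and Dnmt1 1.83-fold (adjusted p = 4.97e-12 and 1.09e-06). Dnmt3l (13 against 0 UMIs) was at least 3.99-fold higher. Dnmt3a passed (adjusted p = 0.0306) but was lost with DESeq2 (0.0844) and without A2S replicate A (0.543), FBS replicate A (0.142) or FBS replicate B (0.0528). Tet3 was lower (35 and 28 against 56.9 and 53.6 CPM, adjusted p = 0.000467). Tet2 was the member that did not pass, at 25.2 and 19.6 against 30.7 and 26.4 CPM (adjusted p = 0.148).

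At day 12 without small molecules, the pluripotent pattern lay in few cells. Nanog-positive cells were 22 of 185 and 18 of 190, too few for a test under the minimum of 20 cells in each library. Tet1 read 208 and 260 CPM in them and 6.64 and 6.97 CPM in the others, Dnmt3b 181 and 94.5 against 5.31 and 5.23, and 19 of 20 and 11 of 12 UMIs of Dnmt3l fell in these cells, which held 12.8% and 10.9% of all UMIs. Tet2 was at 117 and 99.2 CPM in them and, unlike Tet1, still at 41.8 and 44.7 CPM in the Nanog-zero cells. With Epcam as the class, chosen after the data were seen, 6 of the 8 members were higher in the positive cells and 0 lower, where 26.5% of 11037 genes were called. Among them were Tet1 (log2 4.10 ± 0.34, adjusted p = 3.65e-09), Dnmt3b (4.13 ± 0.43, adjusted p = 1.49e-07), Uhrf1 (2.39 ± 0.21, adjusted p = 8.22e-09), Dnmt1 (1.26 ± 0.22, adjusted p = 0.000103) and Tet2 (1.04 ± 0.29, adjusted p = 0.01, but 0.147 without replicate B).

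The end points remained apart from stem cells. A2S at day 6 against ESC with A2S called all 8 members, 2 higher and 6 lower (63.4% of genes called). Dnmt3l was 96-fold lower (adjusted p = 2.29e-15), Dnmt3b 9.34-fold, Tet1 4.93-fold, Tet2 3.19-fold, Uhrf1 2.64-fold and Dnmt1 1.51-fold lower, while Tet3 (4.66-fold) and Dnmt3a (3.6-fold, 43.7 and 29.6 against 10.9 and 9.39 CPM, adjusted p = 1.63e-09) were higher. In Nanog-positive cells alone the same 8 were called in the same directions (58.3% of genes called): Dnmt3l by -5.55 ± 0.21, Dnmt3b by -2.55 ± 0.12, Tet1 by -1.54 ± 0.11, Tet2 by -1.21 ± 0.18, Uhrf1 by -0.86 ± 0.08, Dnmt3a by 1.57 ± 0.24 and Tet3 by 1.35 ± 0.32 (log2; adjusted p at most 0.00048). Dnmt1, at -0.24 ± 0.09 (adjusted p = 0.0252), was lost without any 1 of the 4 libraries (0.075 to 0.108) and with 2 Nanog UMIs as the class (0.0539). FBS at day 12 against ESC called 7 members, 1 higher and 6 lower (66.3% of genes called). Tet2, at 51.4 and 49.9 against 50.6 and 42.9 CPM, was the member not called (log2 0.12 ± 0.19, adjusted p = 0.608), and Tet3 was 3.86-fold higher (adjusted p = 7.55e-08).

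Ordered by level, Tet1, Dnmt3b and Dnmt3l had both stem cell groups on top, with no overlap between ESC and ESC with A2S. For Tet1, A2S day 6 (mean 52.8 ± 6.8 CPM, SD, n = 2) and FBS day 12 (33.2 ± 1.3) followed without overlap, and then AS day 6 (19.8 ± 9.2), whose libraries overlapped those of S2 day 6 (14 ± 4.1). For Dnmt3b, A2S day 6 (30.1 ± 3.9) and FBS day 12 (21.2 ± 9.1) overlapped. Tet2 was highest in ESC with A2S (71.8 ± 1.9 CPM), followed by FBS day 12 (50.6 ± 1) and ESC (46.8 ± 5.4), which overlapped. Tet3 was lowest in ESC with A2S (6.74 ± 0.63) and ESC (10.7 ± 2.6) and next in MEF (30.8), which overlapped A2S day 6 (31.5 ± 5). Dnmt3a was lowest in ESC with A2S (10.2 ± 1.1) and highest in ESC (155 ± 1.6), and in second place S2 day 6 (48.5 ± 1.9) stood above A2S day 6 (36.6 ± 9.9). Group means of Dnmt1 ran from 85.2 CPM in FBS day 6 to 235 ± 3.5 in ESC with A2S.

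The genes whose group means were most like each member, over 7539 candidates and 16 groups, were Spc25 (r = 0.967), Chaf1a (0.962) and Cct6a (0.961) for Dnmt1, and Chtf18 (0.977), Vprbp (0.971) and Bard1 (0.971) for Uhrf1. For Tet1 they were Mycn (0.984), Sall4 (0.967) and Jarid2 (0.966), for Dnmt3b Mycn (0.969), Mkrn1 (0.969) and Tle4 (0.965), and for Dnmt3l Dppa4 (0.972), Lincenc1 (0.964) and Zfp42 (0.96). For Dnmt3a (Pbx2 0.913, Arid2 0.894, Pfkl 0.868) and Tet2 (Rnf167 0.947, Gigyf1 0.943, Smg6 0.937) the likeness was lower. Those for Tet3 were Atrnl1 (0.978), Svil (0.976) and Cd109 (0.975). Tet3 ran against Dnmt3l (r = -0.93) and Dnmt3b (r = -0.85). Dnmt3l had means of 223 CPM in ESC and 200 CPM in ESC with A2S, and next 8.83 CPM in FBS day 12. Its correlations, that with Tet3 among them, therefore rest largely on the stem cell groups against the rest.

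The counts of the gene lists that follow are to be read against the share of all genes called, 71.8% in ESC against MEF, 46.7% with A2S in ESC, and 6.55% and 16.1% with ascorbic acid at day 4 and day 6. Among 30 partners of maintenance and readers of methylated CpG, 20 were higher and 6 lower in ESC than in MEF (median log2 0.80, all genes 0.016). Hells, the remodeller that maintenance needs (411 and 378 against 48.3 and 38.1 CPM, log2 3.2 ± 0.16), and its activator Cdca7 (2.62 ± 0.14) were higher, and Dppa3, a protein that keeps UHRF1 off chromatin, gave 454 UMIs against 0, at least 407-fold. The reader genes Mbd2 (-2.60 ± 0.14), Mbd1 (-2.66 ± 0.33) and Zbtb4 (-4.16 ± 0.31) were lower. With A2S, 9 of the 30 rose in ESC and 9 fell (median 0.02, all genes 0.04). Prdm14, known to repress the de novo enzymes in naive cells, rose from 8.79 and 8.44 to 42.7 and 41.7 CPM (log2 2.29 ± 0.35, adjusted p = 1.44e-05), with Hdac2 (0.94 ± 0.13) and Lig1 (0.91 ± 0.11). Cdca7l (-1.53 ± 0.20), Suv39h1 (-1.53 ± 0.18) and Mbd2 (-1.26 ± 0.20) fell.

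With ascorbic acid, 2 of the 30 were higher and 1 lower at day 4 and 9 higher and 3 lower at day 6 (median 0.10). Dppa3 stood out at day 6, at 63.3 and 64.3 CPM in A2S against 0.957 and 0.393 in S2 (log2 6.43 ± 0.46, adjusted p = 4.97e-10). The deacetylase genes moved apart at both days: Hdac1 was higher (0.92 ± 0.13 and 0.95 ± 0.13) and Hdac2 lower (-0.59 ± 0.13 and -0.58 ± 0.13). Nsd1 (0.38 ± 0.11) at day 4 and Mbd4 (0.72 ± 0.23) at day 6 were higher, and Zbtb33 (-0.68 ± 0.17) and Cdca7l (-0.52 ± 0.17) lower.

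Of 20 genes of base excision repair and active demethylation, 12 were higher and 4 lower in ESC than in MEF (median 0.81). Among genes with a mean of 20 CPM in either group, Parp1 (2.80 ± 0.10), the uracil glycosylase Ung (3.05 ± 0.16) and the deaminase Apobec3 (3.35 ± 0.13) led the first. Gadd45g (-4.05 ± 0.20), Gadd45b (-2.42 ± 0.20) and Samhd1 (-0.63 ± 0.12) led the second. Below that level, Neil2 (62 against 1 UMI, ratio 167, exact interval 28.8 to 6685) and Apobec2 (34 against 1, ratio 91.4, interval 15.3 to 3713) were higher and Cxxc4 (2 against 26) lower. With A2S in ESC 7 rose and 7 fell (median -0.15, or 0.05 with 1 gene too sparse for a fold left out, so its sign is not fixed): Gadd45b (0.99 ± 0.23), Ung (0.68 ± 0.13) and Xrcc1 (0.66 ± 0.16) rose, and Gadd45a (-2.73 ± 0.20), Samhd1 (-0.83 ± 0.14) and Lig3 (-0.59 ± 0.14) fell. With ascorbic acid 2 were higher and 1 lower at day 4 and 4 higher and 4 lower at day 6 (median -0.12). The RNA-editing deaminase Apobec1 was higher at both days (1.59 ± 0.20 and 1.24 ± 0.19), as was Apobec3 at day 4 (0.84 ± 0.13), and Ung (0.84 ± 0.16) and Gadd45b (0.80 ± 0.16) at day 6. Gadd45g was lower at both (-0.68 ± 0.15 and -0.47 ± 0.15), and Gadd45a (-0.76 ± 0.17) and Xrcc1 (-0.44 ± 0.14) at day 6.

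Genes that supply the cofactors of these enzymes formed 2 lists, of which 14 of 18 in ESC against MEF and 3 of 16 with ascorbic acid at day 6 lie near the shares of all genes called, 71.8% and 16.1%. In the cycle that makes S-adenosylmethionine, the methyl donor, 12 of 18 genes were higher and 2 lower in ESC than in MEF (median 0.66, or 0.71 with Tdh at its bound and a sparse gene left out), with the threonine dehydrogenase Tdh at 1998 UMIs against 0, at least 1790-fold. With A2S in ESC 7 rose, among them Tdh (1.66 ± 0.19) and Mtrr (1.05 ± 0.16), and 5 fell, among them Ahcyl1 (-0.92 ± 0.12) and Ahcy (-0.71 ± 0.14), which clears the product of methylation (median 0.14). With ascorbic acid edgeR and DESeq2 each called 0 of 18 at day 4, with 2 at an unadjusted p under 0.05, and at day 6 Tdh was the 1 gene higher (1.10 ± 0.20) and 4 were lower, among them the methionine synthase Mtr (-1.0 ± 0.18; median -0.16). Of 16 genes for 2-oxoglutarate and ascorbate, 9 were higher and 5 lower in ESC than in MEF (median 0.58). With A2S in ESC 6 rose and 3 fell (median -0.04), the isocitrate dehydrogenase Idh1, which makes 2-oxoglutarate, from 72.4 and 89.9 to 482 and 486 CPM (log2 2.57 ± 0.12, adjusted p = 4.42e-17), Idh2 by 1.48 ± 0.10 and Gsto1, which can recycle ascorbate, by 4.16 ± 0.16. The glucose transporter Slc2a1 fell by 1.63 on that scale. With ascorbic acid 3 of 16 were higher at each day and 0 lower: Ogdh (0.88 ± 0.13), Glud1 (0.44 ± 0.10) and Gsto1 (0.81 ± 0.14) at day 4, and, among those at day 6, Glud1 (0.51 ± 0.10) and Got1 (0.36 ± 0.12).

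Germline genes, a group silenced by promoter methylation in somatic cells, and S phase genes were read as companions. Of 29 germline genes 24 were higher and 0 lower in ESC than in MEF (median 6.07, or 4.97 with genes at 0 at their bound). With A2S 21 rose and 1 fell in ESC (median 2.82): Xlr3a went from 0 to 399 UMIs (at least 93.5-fold), Xlr3c from 0 to 441 (at least 103-fold) and Asz1 from 1 to 189 (ratio 133, exact interval 23.6 to 5275). With ascorbic acid edgeR and DESeq2 called 0 at day 4, with 1 at an unadjusted p under 0.05 and 24 of the 29 too sparse for a fold, and 7 were higher and 0 lower at day 6 (Tex19.1, Piwil2, Fkbp6, Rhox5, Rhox6, Rhox9 and Xlr3a, all under 20 CPM).

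Of 50 S phase genes 45 were higher and 1 lower in ESC than in MEF (median 1.33), 12 rose and 7 fell with A2S in ESC (median close to 0), and with ascorbic acid 1 was higher at day 4 and 11 at day 6, with 0 lower at either day (medians 0.02 and 0.28). With ascorbic acid the shares of all genes called in either direction were 6.55% and 16.1%. Of the 13229 genes tested, 419 were called higher at day 4 and 1022 at day 6. Beside Dnmt1 and Uhrf1 in reprogramming without small molecules, 40 of 50 were higher in FBS day 3 than in MEF and 0 lower. From FBS day 3 to day 12, where Dnmt1 and Uhrf1 fell, 42 fell and 0 rose. Of all genes, 40.8% and 45.7% were called in these comparisons. In A2S day 6 against AS and A2, 30 and 22 of the 50 were higher and 0 lower (medians 0.51 and 0.48). These comparisons called 38.6% and 30.8% of all genes. Dnmt1 was higher there without overlap of the libraries but was not called (log2 0.25 ± 0.12 and 0.10 ± 0.12, adjusted p = 0.1 and 0.557). Uhrf1 was called higher in both (adjusted p = 0.00013 and 1.21e-05). With the compared groups alone Dnmt1 was called higher against AS (log2 0.26, adjusted p = 0.032). The part of cell division in the levels of the pair was not tested.

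**Figure D4:**
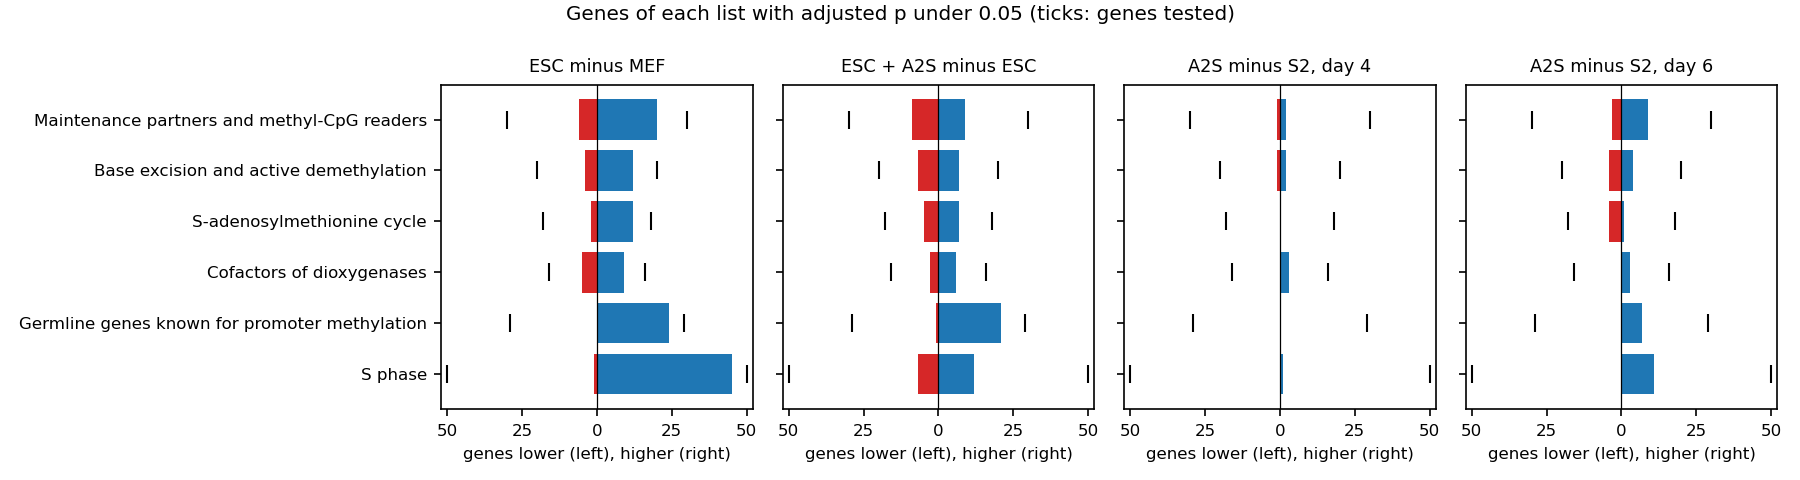
Number of genes of each list with an adjusted p under 0.05, lower to the left (red) and higher to the right (blue) on a linear axis, in 4 comparisons; ticks mark the number of genes tested. S phase genes are mostly higher in ESC than in MEF (45 of 50), germline genes mostly higher with A2S in ESC (21 of 29), and few genes of any list are called for A2S minus S2 at day 4.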

How the data were processed

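Single cells were profiled with Bio-Rad's droplet system and a 3' whole-transcriptome kit, per the labels' protocols. The deposited values are UMI counts per gene and cell, made by the authors with bcl2fastq 2.19 and STAR on mm10, as the submitters' processing notes list them. Which annotation and which counting tool they used is not given in the sources used here. All barcodes on the authors' list of irradiated feeder cells for the same group were dropped; 5 listed for another group were kept. No doublet caller was run, so cells of 2 types may sit in a class.

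UMIs were summed per library and tested with edgeR 4.0.16 in R 4.3.3 (quasi-likelihood test, TMM factors, filterByExpr, one fit of all libraries, Benjamini-Hochberg adjustment). Cells were classed by a UMI of Nanog or Epcam, with at least 20 cells per library in a class. Intervals are exact Clopper-Pearson at 95% and, like the floor of 3 UMIs, cover counting error only. No pair of replicates was close enough to be 1 library deposited again. The genes named beside the members were, per list, up to 3 called genes with the most positive and 3 with the most negative change, given a mean of 20 CPM in either group, and per member the 3 most alike in group means; below 20 CPM, called germline genes were named after their values were seen. The members and lists were chosen with earlier results of these data known. Alternatives were RLE factors, DESeq2 1.42.0, no filter, listed cells kept, other classes, the compared groups alone, a replicate block and each library left out. The scripts were tested on simulated data. A gene that the naming rule selected is not reported here.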

Additional observations from a re-analysis of the deposited data

Results flagged for a closer look

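The difference between A2S and S2 in Tet1 was tested for a change between day 4 and day 6 and was larger at day 6, by 2.11 ± 0.45 on the log2 scale (edgeR's quasi-likelihood test, adjusted p = 0.00769). The libraries read 48 and 57.6 CPM in A2S and 11.2 and 16.9 CPM in S2 at day 6, and 10.6 and 7.86 against 12.5 and 9.08 CPM at day 4. The call was lost without S2 day 4 replicate A (adjusted p = 0.104) or S2 day 6 replicate A (0.0569).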

How the results depend on the processing

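Of 231 counts of called members over 23 comparisons and their alternatives, 207 were within 1.5 times the reported count, and of 1816 values of single members 1710 kept direction and side of the threshold, 81 lost the call, 25 gained it and 0 reversed. The counts that moved were the interaction (2 with no filter and 2 with the compared groups alone), A2S day 2 against MEF (1 with the listed feeder cells kept and 1 with DESeq2), A2S day 4 against day 2 (5 with those cells kept), A2S against A2 at day 4 (2 with the compared groups alone), Nanog classes of S2 day 6 (2 with Epcam) and A2S against S2 in Nanog-positive cells (2 with 2 Nanog UMIs as the class). The cause was not tested. Of 128 shares of cells with a UMI, 121 moved over 1.5 times with no thinning, 99 with thinning to more UMIs per cell and 97 with thinning to fewer, as their construction sets.

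With each library left out in turn, an arm keeps 1 sample whose spread is assumed to be that of the other groups. Counts then ran from 1 to 3 for A2S day 2 against MEF, 2 to 3 for day 4 against day 2, 3 to 4 for day 6 against day 4, 0 to 1 for A2S against A2 and 0 to 3 against AS at day 4, 4 to 5 and 2 to 5 at day 6, 3 to 5 against S2 at day 6, 6 to 7 against FBS day 6, 3 to 4 for A2S in ESC, 0 to 1 for the interaction, 1 to 3 for A2S against S2 in Nanog-positive cells, and 5 to 6 and 2 to 3 for the Nanog classes of A2S and S2. Dnmt3a in A2S day 2 against MEF gained a call with RLE factors (log2 -0.48, adjusted p = 0.02).

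Correlations of A-minus-B deviations between compared groups ran from -0.083 to 0.048. They gave no sign that replicate letters pair the samples, but cannot exclude it, since counting error also weakens them. With a replicate block, 0 of 23 counts moved over 1.5 times; Tet3 lost its call in A2S against S2 in Nanog-positive cells (adjusted p = 0.058), and Tet2 there (0.0415) and Dnmt3a in A2S day 2 against MEF (0.0477) gained one. The Nanog comparisons of FBS day 12 were not run, since 1 library held 18 positive cells.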

Other observations

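In A2S at day 6, cells with UMIs of both Dnmt3b and Tet1 numbered 29 of 230 and 27 of 258, where the product of the 2 shares gave 16.1 and 16.4. Cells with both Dnmt1 and Uhrf1 numbered 121 and 133, against products of 94.6 and 98.0. Both pairs share the depth of a cell, and its part was not tested. Dazl, a germ cell gene chosen after its values were seen, stood at 585 CPM in ESC with A2S and at 7.33 CPM in ESC (log2 6.29 ± 0.23), and Tdrd1 was the germline gene that fell there (8 against 29 UMIs).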
